A study of Mus musculus with 24 samples.

Results

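The genes described here are 42 regulators of mitosis, among them the mitotic kinases, the A and B cyclins, the spindle checkpoint, the chromosomal passenger complex, the machinery of anaphase and mitotic exit, and the Cdc14a and Cdc14b phosphatases that were deleted. They were taken by gene symbol from a list, with no cut on measured values, and all 42 were among the 17545 genes of the table. The list was chosen with earlier results of these data known. They were measured in mouse embryonic stem cells derived from blastocysts, at day 0, day 2 and day 7 of neural differentiation, in wild type, Cdc14a KO, Cdc14b KO and Cdc14ab KO, the last lacking both genes. Since Cdc14 enzymes reverse phosphorylation placed by cyclin-dependent kinases, the question was whether transcripts for entry into or exit from mitosis differed by genotype.

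Day 0 cells of all genotypes were kept in medium with LIF. The differentiating cells were moved to N2B27 with EGF and FGF2, and were seeded on laminin at day 6 without the growth factors. All lines had been grown on feeder fibroblasts, which were removed by plating on gelatin before extraction. Each genotype was represented by 2 lines, called clones 1 and 3 in the labels, and each line by 1 library a day, which gave 24 libraries in 12 groups of 2. No label says that clones were cultured separately beyond their number, so p-values reflect only how far these clones lie from each other. Recovered reads per library ranged from 6422883 to 10856721, with a median of 8015247. Levels are normalized counts, which are reads divided by 1 size factor per library, and come from the 3′ end of the transcript, so they are not compared between genes. Differences are on the log2(normalized count + 1) scale, with the standard error (SE) of the fit, and a gene is called when its limma p, adjusted over all 16158 genes tested, is under 0.05. All 42 members passed the filter on low values, and 16 had a mean above 1000 normalized counts.

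Passage through mitosis turns on Cdk1 bound to cyclin B. Cdc25 phosphatases activate it and the Wee1 and Pkmyt1 kinases restrain it, while Mastl blocks the PP2A form that would otherwise undo its work. Exit begins once the spindle checkpoint is satisfied and Cdc20 directs the anaphase-promoting complex (APC/C) to cyclin B and securin. In budding yeast Cdc14 drives this exit; in mammalian cells much of that work is known to fall to PP2A. Many of these genes are switched on together in G2 by the MuvB complexes with B-MYB and FOXM1, which are known to act at a short promoter element, the cell cycle homology region.

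The letters of that element were common in the promoters of these genes. RefSeq promoters (GRCm38.p6, 250 bases before to 50 after the start) were matched for 33 of the 42 members, 39 promoters in all. TTTGAA or TTCGAA, searched on both strands, lay between 100 bases before and 50 after the start in 26 of the 39 (66.7%, 23 genes), against 5.48% of the 14287 promoters of tested genes. TTCGAA reads the same on both strands, and either motif can share at most 1 letter with CCAAT, which occurred at least 2 times in 46.2% of the member promoters and 13.9% of all. TTTGAA alone was found near the start in 61.5% of member promoters and 4.75% of all. A match is a run of letters, not a measured binding site. The 7 windows of 30 bases shown next belong to the genes on which the results turn: Cdk1, Bub1b and Cenpa, whose changes over days depended on the Cdc14b genotype, Kif11, Anln and Top2a, which fell during differentiation, and Cdc25b, which rose. Each is read 5′ to 3′ on the strand of the gene, with the letters of 1 match in capitals, and TTCAAA is TTTGAA on the opposite strand. The Anln window also holds another match, on the opposite strand, left in lower case.
Cdk1: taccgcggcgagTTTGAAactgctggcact
Bub1b: ctgcgtcaagagacgttaaaTTTGAAactt
Cenpa: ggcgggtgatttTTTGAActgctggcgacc
Kif11: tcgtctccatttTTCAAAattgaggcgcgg
Anln: tgaaattcaaatTTTGAAcggccgtggtag
Top2a: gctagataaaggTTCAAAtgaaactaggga
Cdc25b: ccgctgttatttTTCGAAtatataaggagg
On GRCm38.p6 the Cdk1 window lies at chr10:69352910-69352939 and the Top2a window at chr11:99024195-99024224, both on the minus strand, as is the Anln window at chr9:22389161-22389190. The plus-strand windows lie at chr2:118598231-118598260 for Bub1b, chr5:30666890-30666919 for Cenpa, chr19:37376351-37376380 for Kif11 and chr2:131186943-131186972 for Cdc25b. The riser thus held a match as close to its start as the fallers did. Members with the letters near the start had a median day 7 minus day 0 difference of -0.43 over 23 genes, of which 12 were called lower and 1 higher. The 10 members with a promoter and no such letters had a median of -0.13, with 3 called lower; both are given as a description.

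**Figure D1:**
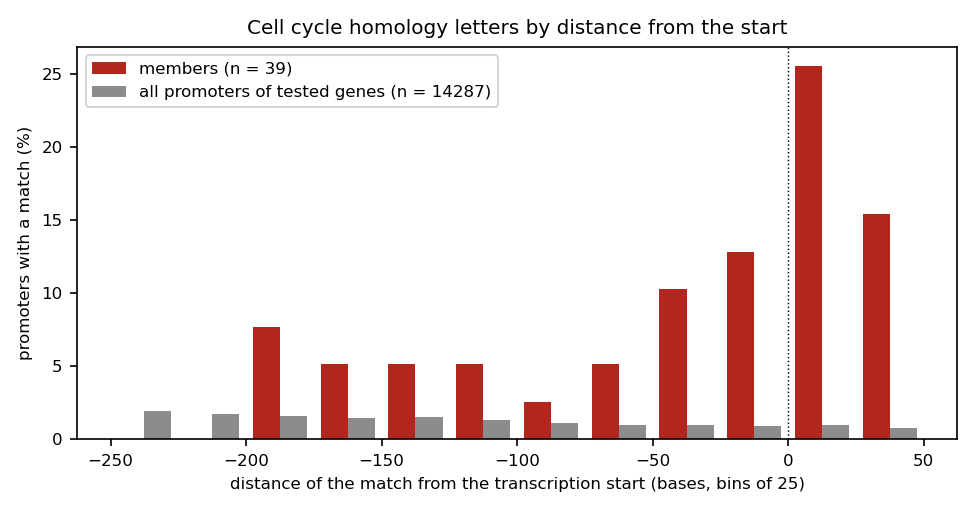
Share of promoters (vertical axis, percent) with TTTGAA or TTCGAA in each bin of 25 bases, by distance from the transcription start (horizontal axis, bases), for the 39 promoters of the 42 mitotic genes and for 14287 promoters of all tested genes. The member bars are tallest in the 25 bases after the start, at 25.6% of promoters.

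The deleted genes come first, as a check of the labels. Cdc14a was close to the lower limit of the assay in every library, between 4.22 and 28.0 normalized counts. Its libraries without the gene overlapped those with it: at day 0 wild type had 12.8 and 7.01, Cdc14a KO 21.8 and 6.28, Cdc14b KO 15.4 and 8.89, and Cdc14ab KO 10.1 and 4.22. At day 2 wild type had 28.0 and 4.74, Cdc14a KO 8.43 and 25.9, Cdc14b KO 10.96 and 6.757, and Cdc14ab KO 4.30 and 7.26. At day 7 the 8 libraries lay between 4.37 and 10.2. Averaged over days, Cdc14a KO lines differed from wild type by 0.14 ± 0.47 in Cdc14a.

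Cdc14b was well measured, and at day 0 it was higher in the libraries labelled as lacking it. Wild type had 103.5 and 142.3 normalized counts at day 0 and Cdc14a KO 137.3 and 167.9, whereas Cdc14b KO had 232.8 and 263.4 and Cdc14ab KO 325.3 and 246.9. At day 7 the order was turned: wild type had 196.5 and 182.7, Cdc14a KO 164.0 and 169.3, Cdc14b KO 106.4 and 156.5, and Cdc14ab KO 101.2 and 131.8. Day 2 libraries overlapped: wild type had 141.2 and 262.6, Cdc14a KO 257.2 and 288.3, Cdc14b KO 96.7 and 212.0, and Cdc14ab KO 144.2 and 203.2. The sources used here do not say which part of either gene was removed, and reads from the 3′ end can come from a transcript with an upstream deletion. These levels therefore say nothing for or against the genotype labels.

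Some libraries stood apart. Cdc14ab KO day 0 clone 1 had the lowest value of its day in 14 members and the highest in 10, with 8 members more than 2-fold below the day's median and 4 above, and 8.70% of its reads on Gm42418, a locus that overlaps ribosomal RNA. Wild-type day 2 clone 3 was lowest of its day in 16 members. Cdc14ab KO day 7 clone 3 was lowest of its day in 12 members, and its sum of trophectoderm markers, 45659 normalized counts, was the highest of all libraries. The library labelled wild-type day 7 clone 3 is described as undifferentiated in 1 label field and as day 7 in the others. Its sum of 7 pluripotency markers was 7800 normalized counts, against 20180 to 48560 at day 0. Its sum of 9 neuron markers, 9882, was the highest at day 7, so by these markers it lay with the day 7 libraries. This library is included in the day 7 values and fits. The Bub1b difference at day 7 between lines without and with Cdc14b, and the called interactions, are also given without it. Most other results are not. Libraries with over 7% of reads on Gm42418 were Cdc14ab KO day 0 clone 1, Cdc14b KO day 0 clone 3 and Cdc14a KO day 2 clone 1. As a whole the 42 genes varied between clones like other genes of their level, with a median clone SD of 0.41 on the log2 scale against 0.41 for 7299 genes with a mean above 100 normalized counts.

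The spread was uneven among members. Cdk1, the kinase that starts mitosis, had a clone SD of 1.07, above 97.8% of those 7299 genes, and a level from 205.7 (wild-type day 2 clone 3) to 4898 normalized counts (wild-type day 0 clone 3), a 23.8-fold range. Cenpa, the histone H3 variant that marks centromeres, ranged 12.9-fold with a clone SD of 0.84. Kif20a, a kinesin of the cleavage furrow, ranged 11.4-fold with a clone SD of 0.80, and Bub1b, the checkpoint protein BubR1, ranged 9.27-fold with 0.69. At the quiet end were Cdc25a at 0.16, the PP2A regulatory subunit Ppp2r2a at 0.20 and the checkpoint protein Bub3 at 0.21. Cdc14a (0.80), Ect2 (0.76) and Cdc25c (0.74) were also among the 7 most variable members, and Plk1 was nearer the middle at 0.48.

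**Figure D2:**
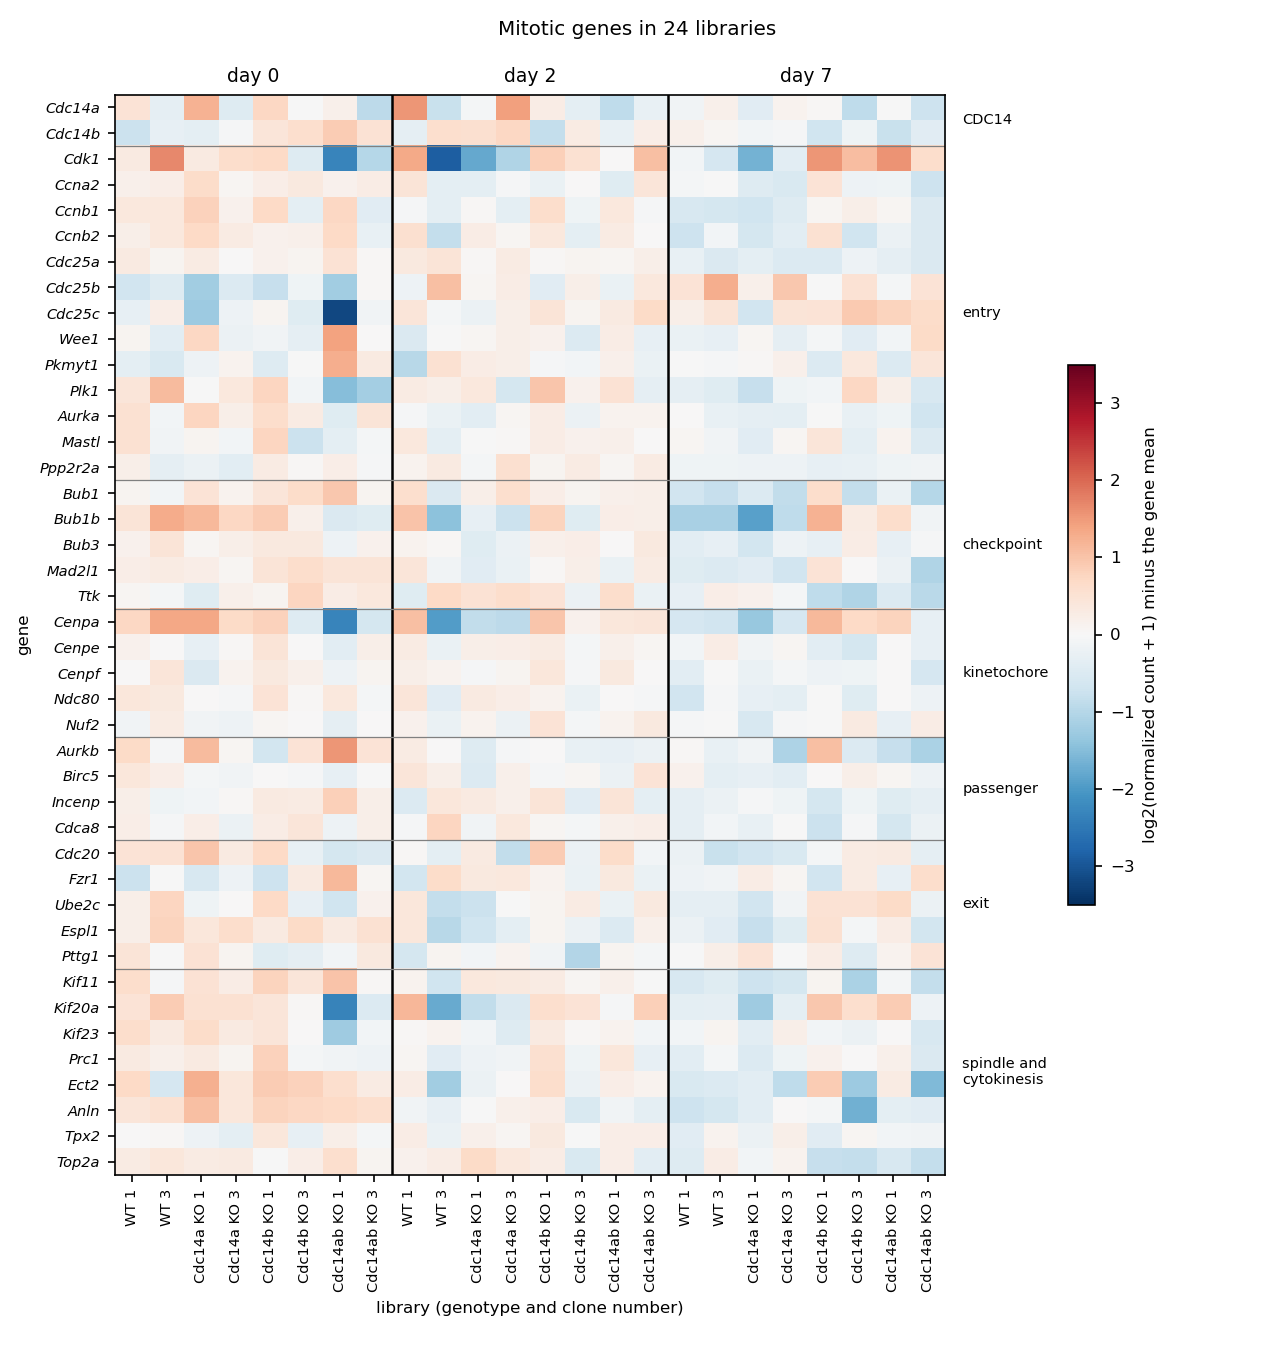
Heat map of the 42 mitotic genes (rows, grouped by role) in 24 libraries (columns, by day, genotype and clone number). Colour is log2(normalized count + 1) minus the mean of the gene over all libraries; Cdk1 has its deepest low in wild-type day 2 clone 3, and the column of Cdc14ab KO day 0 clone 1 holds the low Cenpa, Kif20a and Cdc25c values.

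Mitotic transcripts were lower by the end of differentiation. Averaged over the 4 genotypes, 18 members fell and 2 rose from day 0 to day 7, 47.6% of the 42, where 38.2% of all genes tested were called in either direction. Of all 16158 genes tested, 2805 were called lower and 3375 higher. Their median difference was -0.35 against 0.03 for all genes. Between day 0 and day 2 only 3 members were called (Cdc25b higher, Anln and Espl1 lower) while 14.9% of all genes were, and between day 2 and day 7 there were 7, all lower, against 21.4%. In RNA from whole cultures, fewer cells in mitosis and less of each transcript per cell cannot be told apart.

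Among the genes of entry into mitosis, 2 of 13 rose and 5 fell by day 7. The risers were both Cdc25 phosphatases, activators of cyclin-dependent kinases. Cdc25b had 613.5 to 1453 normalized counts over the 8 day 0 libraries (median 953.6), 1072 to 2920 at day 2 (median 1555) and 1359 to 3433 at day 7 (median 1961). It was higher at day 7 in 8 of 8 lines, by 1.09 ± 0.23 (adjusted p = 0.00143, limma), and was already called at day 2 (0.76 ± 0.23, adjusted p = 0.0348). Cdc25c had 8.86 to 105.2 at day 0 (median 75.3) and 55.4 to 170.5 at day 7 (median 124.2), a difference of 1.06 ± 0.33 (adjusted p = 0.0169) with 8 of 8 lines higher. The lowest value, 8.86, is Cdc14ab KO day 0 clone 1; without that library the difference was 0.67 (adjusted p = 0.0285). Without the libraries rich in Gm42418 Cdc25c was not called. At day 2 its range was 78.0 to 143.7 and its difference of 0.89 ± 0.33 from day 0 was not called (adjusted p = 0.0768); with each line as a replicate block it was called. The third family member, Cdc25a, which also acts at the start of S phase, went the other way: 1497 to 2107 at day 0, 1522 to 2020 at day 2 and 1028 to 1297 at day 7, so that day 7 lay below all earlier libraries. Its difference was -0.57 ± 0.13 (adjusted p = 0.00161), lower in 8 of 8 lines.

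The A and B cyclins fell as well. Ccnb1, cyclin B1, had 1019 to 2321 normalized counts at day 0 (median 1723), 1046 to 2039 at day 2 (median 1298) and 825.4 to 1541 at day 7 (median 960.2). Its day 7 difference was -0.61 ± 0.20 (adjusted p = 0.0220), with 7 of 8 lines lower. Ccnb2, cyclin B2, fell by 0.63 on the log2 scale (adjusted p = 0.0381). Ccna2, cyclin A2, had 360.9 to 537.6 at day 0 and 209.0 to 484.2 at day 7, with -0.47 ± 0.18 (adjusted p = 0.0424), a call lost with the line as a replicate block (adjusted p = 0.0607). Aurka, the centrosomal Aurora kinase, fell by 0.54 (adjusted p = 0.0161). The kinases at the head of the cascade were not called: Cdk1 had medians of 1892, 1873 and 1876 at day 0, day 2 and day 7, and Plk1, the polo-like kinase, 6390, 6595 and 4750. Their day 7 differences were 0.28 ± 0.45 for Cdk1 and -0.16 ± 0.22 for Plk1. Nor were Wee1, Pkmyt1, Mastl and Ppp2r2a called from day 0 to day 7; Ppp2r2a was called lower between day 2 (2955 to 4621) and day 7 (2573 to 2866), by -0.39 ± 0.13 (adjusted p = 0.0433), but not with the replicate block (adjusted p = 0.0663).

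The spindle checkpoint was the role in which every member fell by day 7, 5 of 5, with a median of -0.69. Bub1, a checkpoint kinase, had 89.2 to 184.8 normalized counts at day 0, 67.3 to 145.2 at day 2 and 47.8 to 145.9 at day 7. Its median went from 116.2 to 57.0, and its difference was -0.87 ± 0.23 (adjusted p = 0.00624). Mad2l1, which as Mad2 holds back Cdc20, had 166.1 to 245.6 at day 0 and 76.4 to 224.9 at day 7, a difference of -0.69 ± 0.17 (adjusted p = 0.00337). Bub3 had 1526 to 2380 at day 0 and 1107 to 2078 at day 7, with -0.42 ± 0.13 (adjusted p = 0.0200), lower in 8 of 8 lines. Ttk, the Mps1 kinase at the top of the checkpoint, had 541.7 to 1223 at day 0 and 348.0 to 857.9 at day 7 and fell by 0.57 (adjusted p = 0.0270). Bub1b went from 183.5 to 644.2 at day 0 to 69.5 to 609.8 at day 7, with -0.85 ± 0.30 (adjusted p = 0.0335). Its lines were split, with 4 lower and 4 higher at day 7, as described further on. Bub1 (128.3 to 145.9) and Mad2l1 (220.9 to 224.9) were higher at day 7 in Cdc14b KO clone 1. Ttk was higher in wild-type clone 3 (686.2 to 857.9) and Cdc14a KO clone 1 (541.7 to 804.8).

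At centromeres and kinetochores 1 of 5 members fell, Ndc80, a microtubule anchor of the kinetochore, from 219.5 to 321.9 at day 0 to 144.2 to 230.9 at day 7 (-0.43 ± 0.16, adjusted p = 0.0424, lower in 8 of 8 lines). Cenpa, Cenpe, Cenpf and Nuf2 were not called. Of the chromosomal passenger complex 2 of 4 fell: its kinase Aurkb by 0.80 (adjusted p = 0.0357) and its scaffold Incenp by 0.48 (adjusted p = 0.0354). Birc5, or survivin, was not called, and Cdca8, or borealin, was called lower only between day 2 (2281 to 4115) and day 7 (1461 to 2460), by -0.46 ± 0.16 (adjusted p = 0.0465; 0.0532 with the replicate block).

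For anaphase and exit, the role closest to the known yeast task of Cdc14, 1 of 5 members fell. That was Espl1, separase, the protease that opens cohesin: 249.7 to 371.7 normalized counts at day 0, 110.0 to 288.2 at day 2 and 124.9 to 315.0 at day 7. It was called at day 2 (-0.73 ± 0.21, adjusted p = 0.0253) and at day 7 (-0.70 ± 0.21, adjusted p = 0.0140). Cdc20, the checkpoint's target and APC/C activator, had 1495 to 4502 at day 0 (median 3038), 1268 to 4229 at day 2 (median 2274) and 1340 to 2879 at day 7 (median 1921), and its difference of -0.44 ± 0.22 was not called. Fzr1, the APC/C activator of late mitosis and G1, Ube2c, its ubiquitin-conjugating enzyme, and Pttg1, securin, were not called.

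Of 8 genes of the spindle, cytokinesis and chromosome structure, 4 fell. Anln, anillin, a scaffold of the cleavage furrow, had 96.1 to 151.8 normalized counts at day 0, 49.8 to 84.7 at day 2 and 21.9 to 73.2 at day 7, so that no library of a later day reached the day 0 range. Its day 7 difference of -1.18 ± 0.22 (adjusted p = 0.000425), a 2.26-fold fall, was the largest fall among the members, and it was already called at day 2 (-0.78 ± 0.22, adjusted p = 0.0229). Ect2, which is needed for cytokinesis, had 104.2 to 376.4 at day 0 and 53.7 to 292.7 at day 7 (-1.03 ± 0.33, adjusted p = 0.0192). Kif11, the kinesin that pushes spindle poles apart, had 197.4 to 406.3 at day 0 and 95.3 to 219.8 at day 7 (-0.97 ± 0.21, adjusted p = 0.00151), with 8 of 8 lines lower. Top2a, topoisomerase II alpha, had 6363 to 9714 at day 0 and 3625 to 7681 at day 7 (-0.67 ± 0.16, adjusted p = 0.00261), again lower in 8 of 8 lines. Kif20a, Kif23, Prc1 and Tpx2 were not called.

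These calls did not all rest equally on every library, and some falls were not seen in every line. Ccna2, Ccnb2 and Espl1 were higher at day 7 than at day 0 in Cdc14b KO clone 1, and Ect2 in wild-type clone 3. Anln, Bub1, Cdc25a, Cdc25b, Kif11, Mad2l1 and Top2a stayed called from day 0 to day 7 under all 10 other settings and in all 16 fits that left out 1 library of those days. Without the 3 libraries rich in Gm42418, 11 members were called. Without Cdc14ab KO day 0 clone 1, the calls of Aurkb, Bub1b, Ccna2, Ccnb1, Ccnb2, Incenp and Ndc80 were lost. Their differences were then -0.66, -0.86, -0.48, -0.47, -0.51, -0.41 and -0.38 in that order. Fewer members were also called without wild-type day 7 clone 3, from day 0 to day 7 and from day 2 to day 7. The Ccnb1 and Ccnb2 values may include reads from the pseudogenes listed beside them in the table, Ccnb1-ps and Ccnb2-ps, so they are uncertain.

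**Figure D3:**
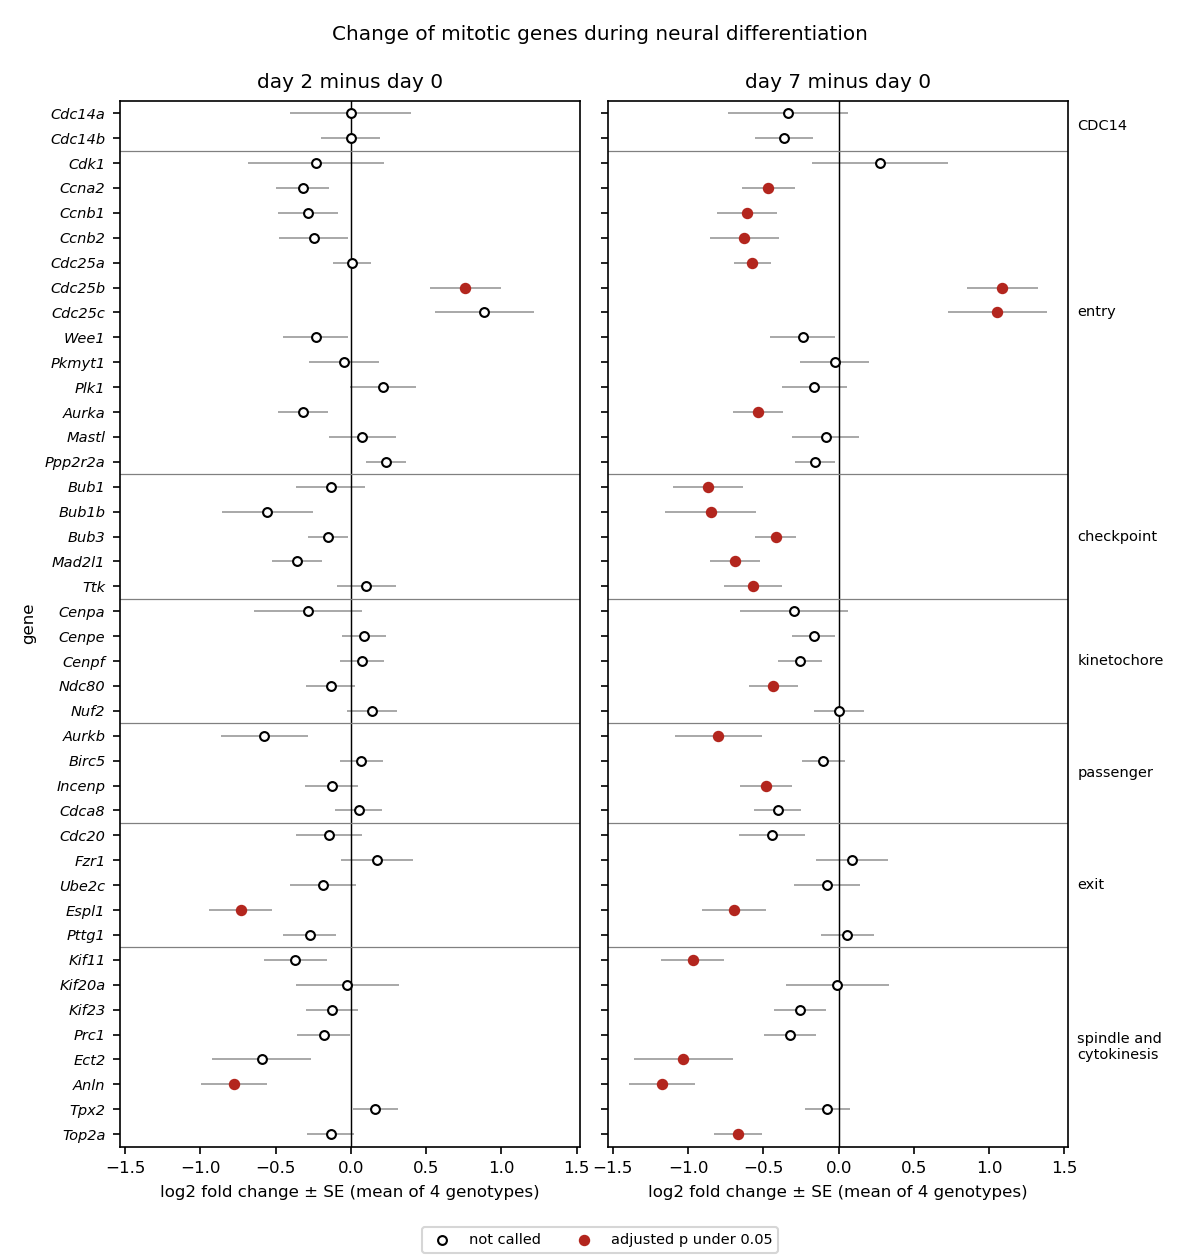
Change of the 42 mitotic genes averaged over 4 genotypes (points, log2 fold change ± SE) from day 0 to day 2 and from day 0 to day 7; filled red points have an adjusted p under 0.05. Points lie on both sides of 0 at day 2, with 3 called, and mostly to the left of 0 at day 7, with 18 called lower and 2 called higher.

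Related genes from other lists are set against the 38.2% of all genes called from day 0 to day 7 in either direction. Of 16158 genes, 2805 were called lower and 3375 higher. From day 0 to day 7, 9 of 18 other mitotic kinesins and spindle genes fell and none rose (median -0.62), among them Kif18a by 0.95, Kif20b by 0.74, Kif15 by 0.67 and the cytokinesis kinase Cit by 0.64 on the log2 scale. Of 13 condensin and cohesin genes 5 fell and none rose (median -0.38), with Ncapg2 down by 1.25, and of 16 other kinetochore and checkpoint genes 4 fell (median -0.34), with Sgo2a, a protector of centromeric cohesin, down by 1.34. Among 16 APC/C genes 3 fell and 1 rose; Fbxo5, the APC/C inhibitor Emi1, fell by 0.96 and Anapc4 rose by 0.62. Among 18 PP2A and PP1 subunits and inhibitors 2 fell and 3 rose, with the neuronal subunit Ppp2r2b up by 2.33 and Ppp2r2d down by 0.99. Of 17 regulators of mitotic transcription 4 fell and 1 rose; Mybl2, which encodes B-MYB, fell by 1.51, Lin9, a MuvB subunit, by 0.73, and Rb1 rose. Of 9 CDK inhibitors and D cyclins 5 rose and 1 fell, with Cdkn1c, the inhibitor p57, up by 3.11, Ccnd2 by 1.57, and Ccnd1 down by 1.15.

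Over the same days the markers of cell identity shifted. The sum of 7 pluripotency markers went from 20180 to 48560 normalized counts at day 0 to 7800 to 13480 at day 7, so Pou5f1 (median 7218 at day 7) and its companions were still present. Among 9 neuron markers 4 rose and 2 fell; Dcx had a median of 1.13 at day 0 and 166.5 at day 7, and Snap25 one of 3.15 at day 7. All 4 neural progenitor markers in the table were detected, and 2 rose. The feeder fibroblast sum went from 145.4 to 361.8 at day 0 to 255.2 to 3022 at day 7, with 6 of 7 markers higher and 1 lower, and the trophectoderm sum from 1386 to 4477 to 6731 to 45660, with 4 of 6 higher. The trophectoderm value of 45660 came from 1 library, Cdc14ab KO day 7 clone 3. The next highest at day 7 was 12152, in Cdc14a KO clone 3. The lowest defining fibroblast marker, Lum, had a median of 0 at day 0 and 8.82 at day 7. The part of these marker shifts in the fall of mitotic transcripts was not tested.

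Taken genotype by genotype, with 2 clones at each day, fewer members passed. In wild type no member was called from day 0 to day 7 by limma, where 7.35% of all genes were; 11 members had an unadjusted p under 0.05, edgeR called 1 and DESeq2 called 2. With the line as a replicate block, Bub1b and Cdc25b were called in wild type. In Cdc14a KO 1 member was called, against 9.26% of genes: Bub1b went from 583.3 and 437.2 to 69.5 and 142.4, by -2.33 ± 0.61 (adjusted p = 0.0222). The replicate block added Cdc20 and Cdc25b there. With any 1 of the Cdc14a KO libraries of those days left out, the Bub1b call was lost. Both day 7 libraries of Cdc14a KO lay below both day 0 libraries for Bub1b, as they did in wild type (358.6 and 644.2 at day 0, 119.8 and 118.7 at day 7), where the fall missed the threshold (adjusted p = 0.0509).

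In Cdc14b KO 2 members were called, against 4.62% of genes. Anln went from 125.9 and 120.0 to 68.9 and 21.9 (-1.63 ± 0.44, adjusted p = 0.0398), and Ttk from 776.8 and 1223 to 391.0 and 348.0 (-1.40 ± 0.39, adjusted p = 0.0461). Cdc14ab KO had 6, against 16.8% of genes. Cdk1 went from 308.8 and 755.5 at day 0 to 4506 and 2322 at day 7, a rise of 2.74 ± 0.90 (adjusted p = 0.0454), and Cdc25c from 8.86 and 81.3 to 153.3 and 140.2 (2.37 ± 0.66, adjusted p = 0.0211). Aurkb went from 94.9 and 44.3 to 17.7 and 14.3 (-1.96 ± 0.58, adjusted p = 0.0276), Mad2l1 from 219.0 and 218.4 to 138.5 and 76.4 (-1.08 ± 0.33, adjusted p = 0.0336), and Top2a from 9714 and 6866 to 4362 and 3625 (-1.04 ± 0.31, adjusted p = 0.0303). Cdc14b itself fell there by 1.29 (adjusted p = 0.0303). All 6 calls were lost without Cdc14ab KO day 0 clone 1, which held the lowest Cdk1 and Cdc25c of its day. The difference was then 2.10 for Cdk1, 0.84 for Cdc25c, -1.42 for Aurkb, -1.08 for Mad2l1 and -0.79 for Top2a. Without Cdc14ab KO day 7 clone 3 Mad2l1 was at -0.66, and without clone 3 of day 0 Cdc25c was at 3.90. In Cdc14b KO, Anln was at -0.83 (adjusted p = 0.385) without day 7 clone 3, and the 2 calls in Cdc14b KO were lost without the libraries rich in Gm42418.

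Against wild type on the same day, no member was called in any knockout. The 3 knockouts share the wild-type libraries of each day. At day 0 and day 2 limma called 0% of all genes in each of the 3 knockouts; at day 7 it called 0% in Cdc14a KO and Cdc14b KO and 1.53% in Cdc14ab KO. The median SE of the members was 0.41 on the log2 scale. Unadjusted p-values under 0.05 were found for 10 members in Cdc14ab KO at day 0, 5 in Cdc14b KO at day 7, and 1 each in Cdc14b KO at day 0 and Cdc14ab KO at day 7. DESeq2 called 3 members in Cdc14ab KO at day 0: Plk1, Cenpa and Cdk1, the last at -2.67 (adjusted p = 0.0294, DESeq2). It called 0 in each other comparison with wild type, and edgeR called 0 in all 9.

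The members with the smallest p-values were all lower in Cdc14ab KO at day 0. For Plk1 the wild-type libraries had 7410 and 11900 normalized counts, Cdc14a KO 5534 and 7246, Cdc14b KO 9409 and 5183, and Cdc14ab KO 1966 and 2450. Its 2 Cdc14ab KO libraries were thus the lowest of the 8, at -2.10 ± 0.44 against wild type (adjusted p = 0.108, limma; 0.00458, DESeq2). For Cenpa they had 1176 and 1821, Cdc14a KO 1795 and 1126, Cdc14b KO 1238 and 514.5, and Cdc14ab KO 141.8 and 460.1, a difference of -2.51 from wild type (adjusted p = 0.116, limma; 0.0288, DESeq2). Kif23, a kinesin of the central spindle, had 1090 and 884.6 in wild type and 298.7 and 670.1 in Cdc14ab KO, -1.13 (adjusted p = 0.130). Without Cdc14ab KO day 0 clone 1 the differences were -1.94 for Plk1, -1.67 for Cenpa and -0.55 for Kif23, and Kif23 was at -1.71 (adjusted p = 0.00356) without clone 3 instead. Plk1 did not keep this order later: at day 2 it had 6728 and 6463 in wild type and 7937 and 4441 in Cdc14ab KO, and at day 7 4481 and 4112 against 6376 and 3776.

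Cyclin B1 and Cdc20 are the substrate and activator at the point of exit. For Ccnb1 at day 0 wild type had 1732 and 1713, Cdc14a KO 2321 and 1497, Cdc14b KO 2184 and 1045, and Cdc14ab KO 2220 and 1019. At day 7 wild type had 912.8 and 866.5, Cdc14a KO 825.4 and 986.3, Cdc14b KO 1400 and 1541, and Cdc14ab KO 1408 and 934.2. Both libraries of Cdc14b KO and of Cdc14ab KO then lay above both wild-type libraries, while Cdc14a KO overlapped them. The differences from wild type at day 7 were 0.02 ± 0.40, 0.72 ± 0.40 and 0.37 ± 0.40 in that order. For Cdc20 at day 0 the wild-type libraries had 3219 and 3259, Cdc14a KO 4502 and 2857, Cdc14b KO 3722 and 1913, and Cdc14ab KO 1495 and 1629, both below wild type (-1.05 ± 0.44, not called). At day 7 the wild-type libraries had 1979 and 1340, Cdc14a KO 1450 and 1581, Cdc14b KO 2180 and 2816, and Cdc14ab KO 2879 and 1862, which gave -0.11 ± 0.44, 0.60 ± 0.44 and 0.51 ± 0.44; the Cdc14b KO libraries lay above both wild-type ones and the other knockouts overlapped them. With standard errors of this size, a difference near 2-fold would not have been called in either gene.

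**Figure D4:**
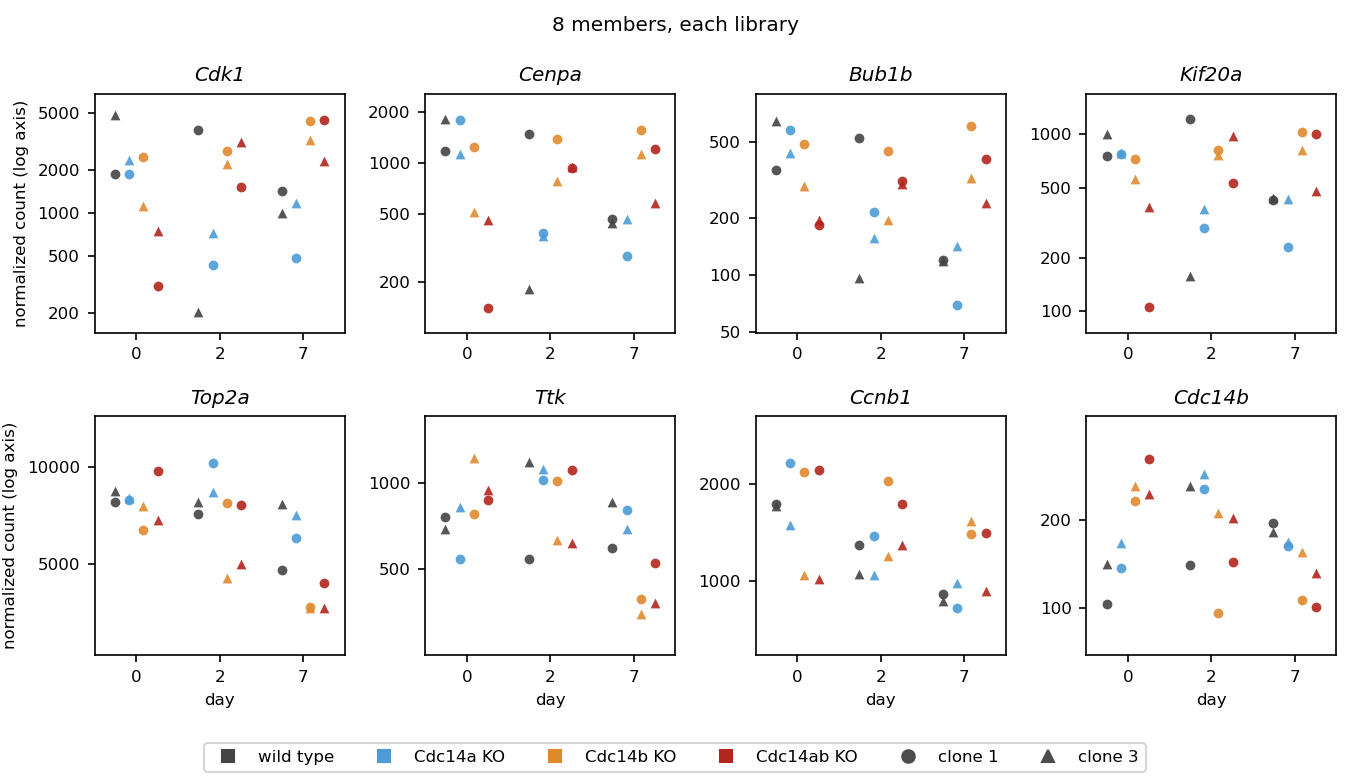
Normalized counts (log axis) of 8 members in each library by day, coloured by genotype, with circles for clone 1 and triangles for clone 3. At day 7 the Cdk1, Bub1b and Cenpa points of Cdc14b KO and Cdc14ab KO all lie above those of wild type and Cdc14a KO, while at day 0 the lowest Cdk1 and Cenpa points are Cdc14ab KO.

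The 4 lines without Cdc14b (Cdc14b KO and Cdc14ab KO, here Cdc14b-null) were then set against the 4 lines with it (wild type and Cdc14a KO, Cdc14b-intact). At day 7 Bub1b was the only member called, with 119.8, 118.7, 69.5 and 142.4 normalized counts in the Cdc14b-intact lines and 609.8, 322.7, 405.8 and 239.2 in the Cdc14b-null lines. The groups did not overlap, and the difference was 1.76 ± 0.43 (adjusted p = 0.0281), where 3.75% of all genes were called. It kept its call under 10 of 10 other settings but in only 1 of 8 fits that left out a day 7 library, with a difference of 1.51 to 2.02. Leaving out the wild-type library with conflicting labels gave 1.76 (adjusted p = 0.140). At day 0 limma called 0.0124% of genes and at day 2 0%, and none of the members; 7 members had an unadjusted p under 0.05 at day 0 and 3 at day 2, and edgeR and DESeq2 called 0 at either day.

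More members than Bub1b separated the lines at day 7. The 2 sets of lines did not overlap for 8 of the 42 members, where 15.6% of all genes tested did not, so the share is close to that of other genes. Higher in the Cdc14b-null lines were Cdk1 (1431, 1005, 484.4 and 1181 in the intact lines, 4449, 3228, 4506 and 2322 in the null lines), Cenpa (283.5 to 468.6 against 581.7 to 1557), Kif20a (230.3 to 437.9 against 480.1 to 1034), Cdc25c (55.4 to 122.9 against 125.6 to 170.5) and Bub1b. Lower in them were Ttk (591.8 to 857.9 against 348.0 to 523.7), Top2a (4771 to 7681 against 3625 to 4362) and Cdc14b (164.0 to 196.5 against 101.2 to 156.5). Apart from Bub1b none was called by limma: Top2a differed by -0.72 ± 0.22 (adjusted p = 0.0729), Ttk by -0.84 ± 0.28 (adjusted p = 0.0907), Cdk1 by 1.88 ± 0.64 (adjusted p = 0.107) and Cenpa by 1.37 ± 0.51 (adjusted p = 0.138). DESeq2 on the recovered reads called these 4 and Bub1b.

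At the earlier days the picture was another. At day 0 the lines did not overlap for 4 members, against 6.77% of genes: Cdc14b, Mad2l1 (166.1 to 195.3 against 218.4 to 245.6) and Incenp (2978 to 3777 against 3814 to 5845) were above in the null lines, and Kif20a (758.7 to 1008 against 106.3 to 730.5) was below. At day 2 there was none, against 6.07%. Cdk1 at day 2 had 3799, 205.7, 436.4 and 733.2 in the intact lines and 2705, 2206, 1539 and 3167 in the null lines, so that 1 wild-type library was the highest of all and the other the lowest.

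**Figure D5:**
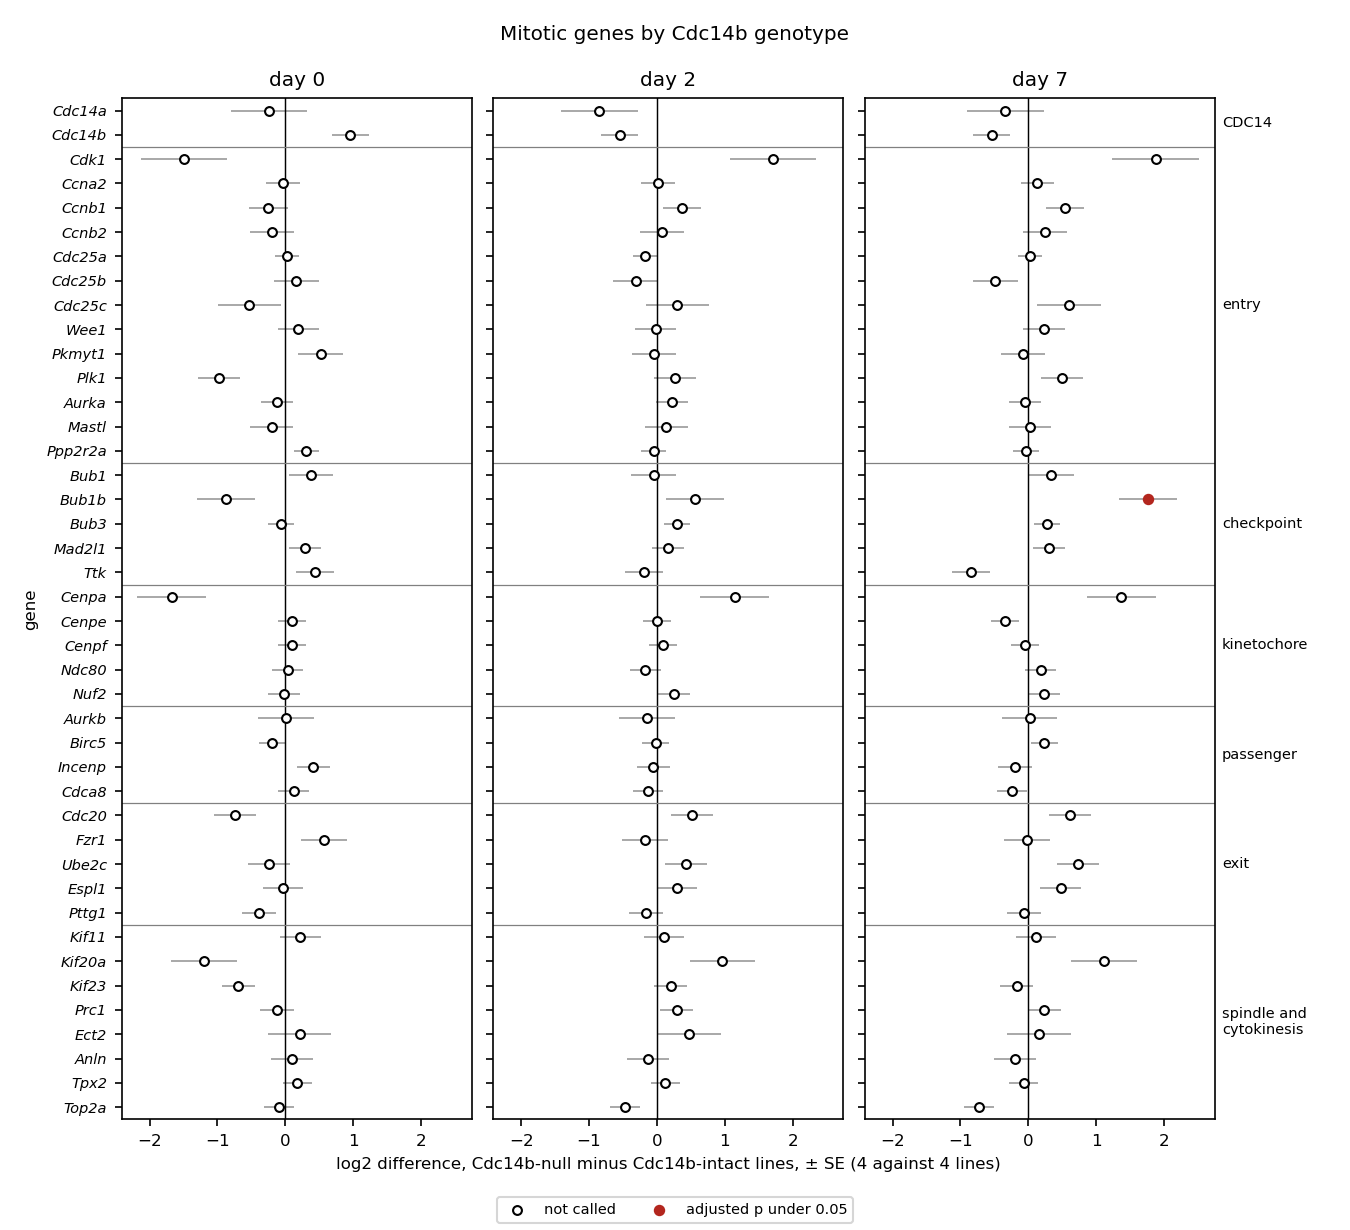
Difference between the 4 Cdc14b-null and the 4 Cdc14b-intact lines (points, log2 ± SE) for the 42 mitotic genes at day 0, day 2 and day 7; filled red points have an adjusted p under 0.05. The filled point is Bub1b at day 7, at 1.76, and the Cdk1 and Cenpa points lie left of 0 at day 0 and right of 0 at day 7.

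The change from day 0 to day 7 itself depended on the Cdc14b genotype for 4 members, among them Cdc14b, the deleted gene. The interaction was called for 9.52% of the 42 and for 3.26% of all genes. Cdk1 changed by -0.40 and -2.28 in the wild-type lines and -1.97 and -0.99 in Cdc14a KO, while the Cdc14b KO lines gave 0.84 and 1.52 and the Cdc14ab KO lines 3.86 and 1.62 (interaction 3.37 ± 0.90, adjusted p = 0.0486). Each intact line thus had less Cdk1 at day 7 than at day 0 and each null line more. Cenpa changed by -1.33, -2.03, -2.66 and -1.27 in the intact lines and by 0.33, 1.14, 3.09 and 0.34 in the null lines (3.04 ± 0.72, adjusted p = 0.0333). Bub1b changed by -1.57, -2.43, -3.05 and -1.61 against 0.31, 0.13, 1.14 and 0.29 (2.63 ± 0.61, adjusted p = 0.0324). Cdc14b ran the other way, with 0.92, 0.36, 0.26 and 0.01 in the intact lines and -1.12, -0.75, -1.68 and -0.90 in the null lines (-1.50 ± 0.39, adjusted p = 0.0427). Kif20a divided the lines in the same manner as Cdk1, -0.83, -1.20, -1.76 and -0.86 against 0.50, 0.54, 3.23 and 0.31, with an interaction of 2.31 ± 0.68 that limma did not call (adjusted p = 0.0657) and DESeq2 did (2.19, adjusted p = 0.0163), as did limma with only the groups compared (adjusted p = 0.0293). By limma, Bub1b was the checkpoint member called here, Cenpa the centromere member and Cdk1 the entry member, with 0 of 5 in the exit role. DESeq2 called 8 members: these 4 and Cdc20 of the exit role (1.34, adjusted p = 0.0421), Plk1 (1.497, adjusted p = 0.0205), Kif20a and Ttk (-1.29, adjusted p = 0.0273). The 3.26% of all genes is from limma. The share of all genes called by DESeq2 is not given here, so its count of members has no background beside it.

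These 4 interactions were sensitive to single libraries. Without the libraries rich in Gm42418 none was called, with adjusted p of 0.202 for Bub1b, 0.240 for Cenpa, 0.241 for Cdc14b and 0.274 for Cdk1. Without Cdc14ab KO day 0 clone 1 the values were 2.61 for Bub1b (adjusted p = 0.0700), 2.62 for Cenpa (0.0883), -1.40 for Cdc14b (0.0944) and 3.05 for Cdk1 (0.115), and without wild-type day 7 clone 3 they were 2.63 (0.0988), 3.03 (0.106), -1.52 (0.117) and 3.24 (0.132). Sizes and signs thus changed little while the calls were lost. For single knockouts against wild type the interaction was called for 0% of genes in Cdc14a KO and Cdc14b KO and for 0.192% in Cdc14ab KO, with no member among them; 9 members had an unadjusted p under 0.05 in Cdc14ab KO, 4 in Cdc14b KO and 0 in Cdc14a KO. For these single knockouts edgeR called 0 members, and DESeq2 called 5 in Cdc14ab KO and 0 in the others. The contrast of Cdc14b KO alone gave 2.52 ± 1.28 for Cdk1 and 2.22 ± 0.86 for Bub1b, and that of Cdc14a KO -0.14 ± 1.28 for Cdk1.

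Other properties moved with the Cdc14b genotype. At day 7 the neuron marker sum was 3150 to 9882 in the intact lines and 1221 to 2596 in the null lines, with 6 of 9 markers lower in the null lines; the neural progenitor sum was 695.1 to 2498 against 100.7 to 780.8, and the fibroblast sum 2169 to 3022 against 255.2 to 1863. The pluripotency sums were 7800 to 13220 against 8584 to 13480, with 0 of 7 markers called. The part of these markers in the Bub1b, Cdk1 and Cenpa differences was not tested. Y-linked transcripts, summed over 4 genes, were 68.4 to 545.9 normalized counts in the intact lines and 4.45 to 65.0 in the null lines over all days, so a difference in sex chromosomes between the lines and the loss of Cdc14b cannot be told apart.

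Averaged over the 3 days, with the line as the replicate, the mitotic genes did not separate the genotypes. Each of Cdc14a KO, Cdc14b KO and Cdc14ab KO against wild type gave 0% of genes called, and Cdc14b-null against Cdc14b-intact 0.099%, with no member in any; 3 members in Cdc14ab KO and 2 in Cdc14b-null had an unadjusted p under 0.05, and edgeR and DESeq2 called 0. Top2a was nearest in the second comparison, at -0.43 (adjusted p = 0.296), and Plk1 (-0.69, adjusted p = 0.396) and Kif23 (-0.48, adjusted p = 0.512) in Cdc14ab KO. Cdk1 differed by -0.61 ± 0.40 in Cdc14a KO, 0.75 ± 0.40 in Cdc14b KO and 0.03 ± 0.40 in Cdc14ab KO.

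Related genes from other lists are set against the 3.75% of all genes called at day 7 between Cdc14b-null and Cdc14b-intact lines. Cdc23, an APC/C subunit, was higher by 1.36 (adjusted p = 0.0480) as 1 of 16 APC/C genes. Ppp2r2c was higher by 1.37 as 1 of 18 PP2A and PP1 genes, and Ckap5, a microtubule polymerase, lower by 0.89 as 1 of 18 kinesin and spindle genes. Of 9 CDK inhibitors and D cyclins, Cdkn2a was higher by 1.51 and Ccnd2 lower by 2.39. No gene of the condensin and cohesin, kinetochore or transcription lists was called at day 7. In the interaction, which was called for 3.26% of all genes, Cdc23, Ppp2r2c (2.44) and Cdkn2a (2.24) were higher. Stag2, a cohesin subunit (-1.26), and Ckap5 (-1.28) were lower.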

How the data were processed

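Gene expression was measured in 24 libraries of mouse embryonic stem cells with the QuantSeq 3′ FWD kit, which keeps strand. The authors deposited 1 table of signal, normalized counts by gene symbol. Per the submitters' processing notes, reads were handled with TopHat2 2.0.10 and Bowtie 1.0.0 on GRCm38, HTSeq 0.6.1 and DESeq2, besides SAMtools 0.1.19 and FastQC 0.11.7; the annotation is not given in the sources used here. All values (100%) were whole multiples of 1 step per library within 0.001, so each library is reads divided by 1 size factor, and whole reads were recovered. Every column was used.

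Values were taken as log2(normalized count + 1). A gene entered the test if 2 or more libraries had 10 or more normalized counts. Testing used limma 3.58.1 with R 4.3.3 (eBayes with trend and robust) on 12 group means with all 24 libraries, which share 1 estimate of the spread, with Benjamini-Hochberg adjustment across every gene tested. Line averages used 8 lines in 4 genotype means. Adjusted p-values are from limma unless another tool is named. Shares of all genes called are from limma, so counts of members called by edgeR or DESeq2 have no such share beside them. Alternatives were pseudocounts of 0.25 and 5, no filter, a minimum of 50, TMM scaling, edgeR 4.0.16 and DESeq2 1.42.0 on recovered reads, only the groups compared, a fit without the 3 libraries rich in Gm42418, a replicate block, and leaving out each library. A group left with 1 clone is assumed to vary like the others. By their labels, a genotype's clone 1 (or 3) is 1 line sampled at each day, so changes over days were also paired; the deviations of a line correlated at -0.115 to 0.248 between days. No 2 clones of a group were duplicates. The fits were tested on simulated data. Figures were drawn with Python 3.11.15 and matplotlib 3.10.9.

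The 42 members, the other gene lists and the tests were chosen with earlier results of these data known. Values by library are given for Cdc14a, Cdc14b, Cdk1, Ccnb1, Cdc20, Plk1 and every called member; beyond 10 called in a comparison, for the 5 highest and 5 lowest by fold change; and, in a family of knockout comparisons with no call, for the 3 members with the smallest p. Genes outside that rule (Ccnb2, Aurka, Incenp, Kif20a and others named beside them) were named after their values were seen. Promoters are those of RefSeq on GRCm38.p6.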

Additional observations from a re-analysis of the deposited data

Results flagged for a closer look

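Of 42 sets of 8 libraries of a day, covering 14 members, 5 held a library far from the other 7. For independent sets chance gives about 1 in 20. These sets share libraries, so their number cannot be set against that rate. Anln had 21.86 normalized counts in Cdc14b KO day 7 clone 3, the lowest of its day. Kif11 had 125.1 in wild-type day 2 clone 3. Cdc25c had 8.86 in Cdc14ab KO day 0 clone 1 and 55.39 in Cdc14a KO day 7 clone 1, and Kif23 had 298.7 in Cdc14ab KO day 0 clone 1. The day 7 minus day 0 change differed between Cdc14b-null and Cdc14b-intact lines, by the limma test of the difference, for Bub1b (2.634, log2), Cenpa (3.044), Cdk1 (3.371) and Cdc14b (-1.497).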

How the results depend on the processing

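Counts of called members moved as follows. Without the libraries rich in Gm42418 there were 0 from day 0 to day 2, 11 from day 0 to day 7, 2 in Cdc14a KO, 0 in Cdc14b KO and 0 in Cdc14ab KO over those days, and 0 for the Cdc14b-null interaction. From day 0 to day 7 wild type had 1 with a pseudocount of 5, a minimum of 50 or edgeR, 2 with DESeq2, 7 with only the groups compared and 2 with the replicate block. Cdc14a KO had 4 with DESeq2, 9 with only its groups and 3 with the replicate block; Cdc14b KO had 0 with edgeR or only its groups, and Cdc14ab KO 0 with only its groups. DESeq2 gave 3 for Cdc14ab KO at day 0, 5 for Cdc14b-null at day 7, where only the groups compared gave 3, 5 for the Cdc14ab KO interaction and 8 for the Cdc14b-null interaction, where only the groups compared gave 6. Leaving out 1 library gave 0 to 4 from day 0 to day 2, 12 to 19 from day 0 to day 7, 1 to 6 from day 2 to day 7, 0 in Cdc14a KO, 0 to 1 in Cdc14b KO, 0 to 12 in Cdc14ab KO, 0 to 7 for Cdc14ab KO at day 0 (7 without its clone 3), 0 to 4 and 0 to 1 for Cdc14b-null at day 0 and day 7, and 0 to 7 for both interactions. No member reversed its sign in a called comparison. The replicate block changed no call other than those given beside the results. Between genotypes the labels share only a number, yet same-numbered clones correlated at 0.119 to 0.512 at day 0 and 0.231 to 0.541 at day 7 in every pair of genotypes, and at -0.134 to 0.628 at day 2; with clone number as the replicate block, 0 members were called in each knockout against wild type at each day, and Bub1b remained the 1 called for Cdc14b-null at day 7. Depth limited Cdc14a, at a mean of 10.2 normalized counts.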
